A study of Mus musculus with 18 samples.

Results

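Class switch recombination and somatic hypermutation both begin with the deamination of cytosine to uracil in immunoglobulin genes. The uracil is then removed by base excision repair or recognized by mismatch repair, and the resulting breaks and gaps are filled by error-prone polymerases or joined between switch regions. In B cells, Toll-like receptor agonists are among the signals that drive activation and switching. Transcript levels of 8 genes of this machinery were followed here in 18 libraries of splenic B cells. They were taken by symbol from the 23420 genes listed: the deaminase family member Apobec3, the uracil glycosylase Ung, the abasic site endonucleases Apex1 and Apex2, the mismatch recognition subunit Msh6, the exonuclease Exo1, the translesion polymerase Polh and the break response protein Trp53bp1.

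All mice were MRL/lpr, an autoimmune strain with the Fas lpr mutation, aged 5 to 7 weeks. B cells were purified from spleen by bead depletion of other cells and cultured for 4 h, in 6 groups of 3 libraries. In the first arm (12 libraries, female mice, all Tlr7-/-), Tlr9+/- cells, called Tlr9het here, were compared with Tlr997 cells, in which TLR9 carries the signaling TIR domain of TLR7. Both were left unstimulated or given the TLR9 agonist CpG oligonucleotide at 10 µg/ml. The titles name the control genotype Tlr9+/-, whereas the treatment protocol writes Tlr9-/- for it, and the titles were followed. In the second arm (6 libraries, male mice, Tlr9-/-), Tlr779 cells express a TLR7 with the TIR domain of TLR9 and were cultured without agonist or with the TLR7 agonist CL097 at 5 µg/ml. The Tlr7WT controls of this arm were not analysed here. Between the arms, sex, genotype and agonist changed together and cannot be told apart. The published methods give an age of 5 weeks for the females and 5 to 7 weeks for the males, so age may differ too. The arms are therefore set side by side with no test between them. The protocol gives 3 mice per genotype but does not say that a replicate number marks a mouse, so the p-values measure the spread between these libraries. The low values carry a trace of an offset per replicate number; if one was removed before deposit, the SEs, intervals and adjusted p-values below are too small.

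The values are log2 CPM, that is, read counts scaled to library size on a log2 scale, as the authors normalized them. Calls required an adjusted p below 0.05 by limma together with a log2 fold change beyond 0.5 in either direction. The purified cells carried B cell markers, with Cd79a, Cd79b, Ms4a1, Pax5 and Cd22 between 5.20 and 11.20 in all 18 libraries. Their summed level ranged from 12.25 to 12.68 log2 CPM in the unstimulated groups. With CpG it was 10.17 to 10.24 in Tlr9het and 10.98 to 11.28 in Tlr997, and with CL097 it was 10.81 to 11.28, so all stimulated libraries were below all unstimulated ones. Of these 5 markers, 4 were called lower and 1 higher with CpG in Tlr9het. With CpG in Tlr997 3 were called lower and 0 higher, and with CL097 in Tlr779 4 lower and 0 higher. In bulk RNA, fewer cells of a type and less RNA per cell cannot be told apart. The summed level of 5 T cell markers was between 0.85 and 4.40, and that of 4 NK cell markers between 1.20 and 3.79. Of the NK cell markers, 1 was called higher with CpG in Tlr9het, 2 in Tlr997 and 0 with CL097, and 0 were called lower. It reached 8.66 for 5 macrophage or monocyte markers and 6.91 for 4 neutrophil markers. The erythroid sum of 5 markers ranged from 6.76 to 11.92 and was mostly carried by the beta globin transcript, while Hba-a1 and Hba-a2 were below 0 in every group. The proliferation sum of 5 markers (Mki67, Top2a, Ccnb1, Cdk1, Birc5) ranged from 6.71 to 9.58, the plasma cell sum of 4 from 8.06 to 10.02, and the plasmacytoid dendritic cell sum of 4, which holds the widely expressed genes Bst2 and Tcf4, from 7.47 to 8.78. Several of these sums moved with the agonists. Of the 4 plasma cell markers, 3 were called lower in each genotype, and the sum went from 8.74-9.49 to 8.06-8.76 in Tlr9het, 8.96-9.26 to 8.16-8.53 in Tlr997 and 9.37-10.02 to 8.68-9.34 in Tlr779. The plasmacytoid dendritic cell sum was lower in all stimulated libraries than in the unstimulated libraries of the same genotype. Its markers went in both directions, with 1 of 4 called higher and 1 called lower in each genotype. For macrophages or monocytes, 1 of 5 markers was called lower with CpG in each genotype and 2 with CL097. The T cell sum was higher with CpG, from 1.87-3.23 to 3.26-4.40 in Tlr9het and 1.23-2.97 to 2.98-4.05 in Tlr997, with 1 of 5 markers called higher in each, and overlapped between groups in Tlr779. For scale, the CpG calls in Tlr9het took in 29.7% of all genes tested as higher and 28.2% as lower. For Tlr997 these shares were 29.6% and 26%, and for CL097 in Tlr779 they were 22.7% and 23.6%. Marker counts of 1 of 4 or 1 of 5 were thus near or below the share of all genes. Whether any marker count departed from these shares was not tested. The part of the marker shifts in the results was not tested either. Unstimulated Tlr997 replicate 3 correlated at 0.944 and 0.955 with the other libraries of its group, against 0.976 to 0.989 for all other replicate pairs. Without it, each of the 8 genes kept its call in every comparison of the first arm.

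The promoter windows of the called genes are shown because these genes moved together or apart with the agonists. RefSeq (GRCm38.p6) gave a window for 6 of the 8 genes, and Apex2 and Exo1 had no entry. Each sequence runs 5′ to 3′ on the gene's strand, from 250 bases before the start of transcription to 30 bases after it. Capitals mark an E-box (CACGTG) or an E2F motif (TTTCCCGC).
Ung: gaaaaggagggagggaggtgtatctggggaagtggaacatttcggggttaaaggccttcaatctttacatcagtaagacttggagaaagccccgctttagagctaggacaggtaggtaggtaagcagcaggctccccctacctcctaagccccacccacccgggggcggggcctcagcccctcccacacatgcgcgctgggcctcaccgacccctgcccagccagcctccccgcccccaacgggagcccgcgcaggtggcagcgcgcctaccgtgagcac
Apex1: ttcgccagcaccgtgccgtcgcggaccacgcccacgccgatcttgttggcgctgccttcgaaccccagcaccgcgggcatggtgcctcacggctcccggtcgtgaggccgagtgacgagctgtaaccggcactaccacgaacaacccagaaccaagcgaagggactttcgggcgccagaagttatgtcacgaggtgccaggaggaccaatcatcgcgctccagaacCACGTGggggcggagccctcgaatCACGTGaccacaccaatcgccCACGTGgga
Polh: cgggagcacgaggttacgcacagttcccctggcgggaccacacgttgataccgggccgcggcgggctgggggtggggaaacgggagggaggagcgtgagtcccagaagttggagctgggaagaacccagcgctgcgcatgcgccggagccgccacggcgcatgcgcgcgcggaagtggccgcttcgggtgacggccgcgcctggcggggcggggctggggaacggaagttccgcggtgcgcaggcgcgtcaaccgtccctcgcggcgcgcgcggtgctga
Msh6: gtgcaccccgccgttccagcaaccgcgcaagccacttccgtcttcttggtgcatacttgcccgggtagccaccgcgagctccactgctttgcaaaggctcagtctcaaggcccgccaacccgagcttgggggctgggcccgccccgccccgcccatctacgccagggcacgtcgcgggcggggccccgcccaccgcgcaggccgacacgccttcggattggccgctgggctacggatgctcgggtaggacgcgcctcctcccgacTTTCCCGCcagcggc
These windows lie at chr5:114130185-114130464 (plus strand) for Ung, chr14:50924699-50924978 (plus) for Apex1, chr17:46202612-46202891 (minus) for Polh and chr17:87974800-87975079 (plus) for Msh6. The search covered 300 bases, to 50 after the start, on both strands, for CACGTG, the E2F motifs TTTCCCGC and TTTGGCGC, the CRE motif TGACGTCA and CCAAT. The Apex1 window held CACGTG 3 times, at bases 227, 251 and 272. At least 3 copies were found in 29 of 32851 windows (0.0883%), and at least 1 copy in 7.15%. The Msh6 window held TTTCCCGC once, at base 266, as 1.07% of windows did. CCAAT occurred in the windows of Apex1 (2 copies), Msh6 (1) and the second of the Apobec3 windows (1), against 37.4% of all windows. TTTGGCGC (0.514% of windows) and TGACGTCA (1.79%) were in none of the 7 windows of these genes. The hits did not overlap each other. A match describes the letters only, and the sequence cannot show whether a factor was bound.

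Of the 8 genes, Ung, Apex1, Exo1 and Polh rose with CpG in both genotypes of the first arm and with CL097 in Tlr779. In Tlr9het, 4 of the 8 genes were called higher with CpG, where 29.7% of the 11494 genes tested were, and 1 was called lower, where 28.2% were. In Tlr997, 5 were called higher (29.6% of all genes) and 0 lower (26%). With CL097, 4 were called higher (22.7% of 11082 genes) and 0 lower (23.6%). All 8 genes passed the filter on low values in both arms. The median log2 fold change of the 8 was 0.64, 0.69 and 0.50 in these comparisons, against 0.04, 0.07 and -0.02 over all genes tested. Stimulated and unstimulated libraries did not overlap for 8 of 8 genes in Tlr9het (80.1% of all genes), 7 of 8 in Tlr997 (71.2%) and 7 of 8 in Tlr779 (67.8%).

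**Figure D1:**
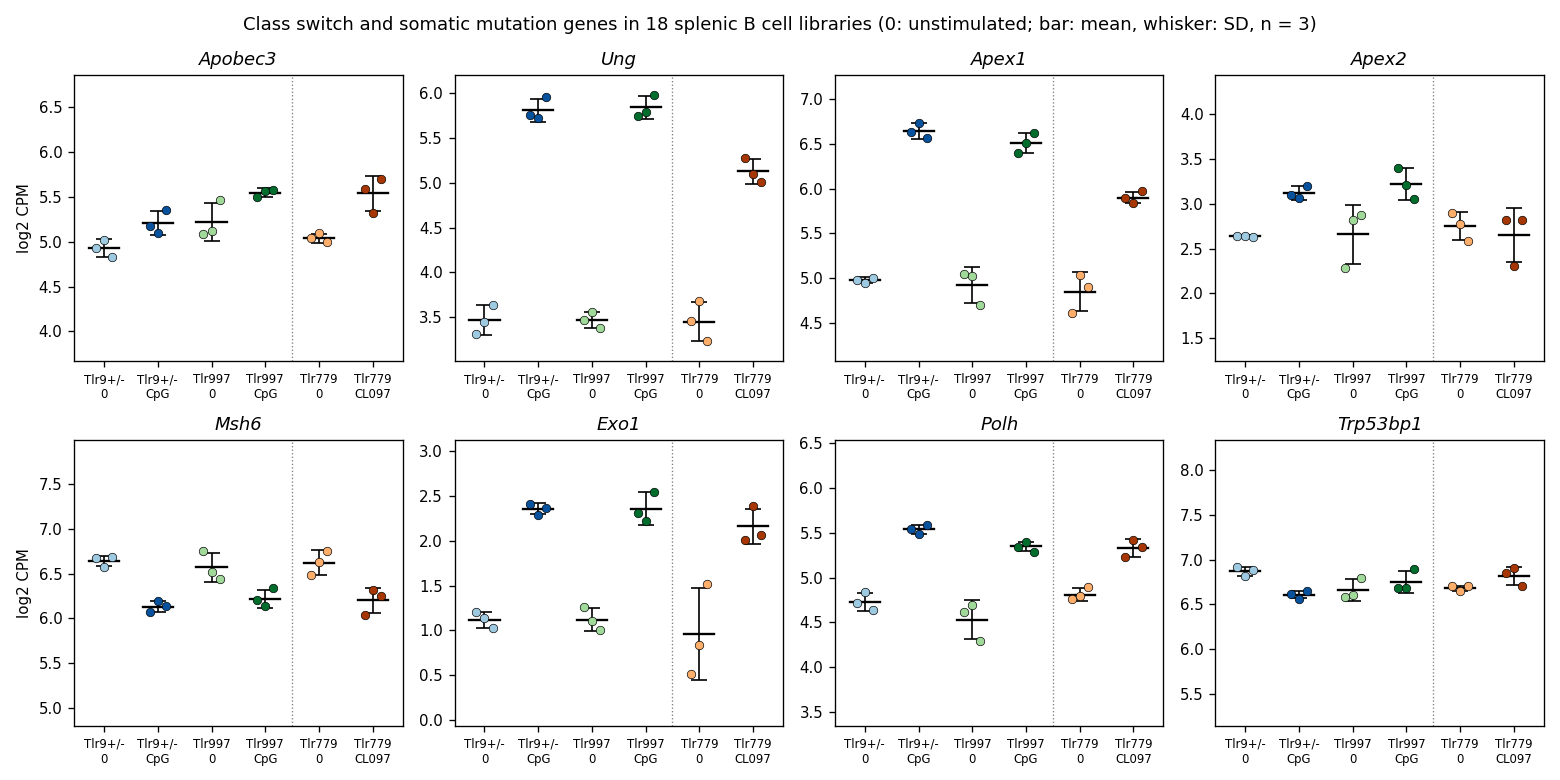
Level of each gene in log2 CPM (y axis, each panel spanning the same number of log2 units) in the 6 groups (x axis, 0 for unstimulated). Points are libraries, horizontal bars the mean and whiskers the SD of 3; the dotted line separates the arms. Ung, Apex1, Exo1 and Polh lie higher in all stimulated libraries than in the unstimulated libraries of the same genotype, and Msh6 lies lower.

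Ung removes uracil from DNA and opens the base excision route. It is located at chr5:114130386-114139323, plus strand (build GRCm38). Its level in unstimulated Tlr9het was 3.31, 3.45 and 3.64 log2 CPM in replicates 1 to 3, and with CpG it was 5.76, 5.72 and 5.96. In Tlr997 it was 3.47, 3.56 and 3.38 without and 5.74, 5.79 and 5.98 with CpG. In Tlr779 it was 3.46, 3.68 and 3.23 without and 5.28, 5.10 and 5.01 with CL097. The 9 unstimulated libraries thus lay within 3.23 to 3.68, and no stimulated library was below 5.01. The log2 fold change was 2.34 ± 0.11 (SE, adjusted p = 3.75e-10, n = 3 against 3) in Tlr9het and 2.37 ± 0.11 (adjusted p = 4.56e-10) in Tlr997, or 5.08-fold and 5.17-fold. With CL097 it was 1.67 ± 0.14 (adjusted p = 3.23e-05, 3.19-fold). The rise placed Ung at rank 345 of 11494 genes in Tlr9het, 365 in Tlr997 and 418 of 11082 in Tlr779. In order of level, Tlr997 and Tlr9het with CpG stood first and overlapped, Tlr779 with CL097 lay 0.68 below with no overlap, and the unstimulated groups overlapped each other.

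Apex1 cleaves the abasic site that uracil removal leaves, and is the main enzyme of this kind. It is at chr14:50924968-50927139, plus strand. Unstimulated libraries were at 4.98, 4.95 and 5.00 in Tlr9het and 5.05, 5.02 and 4.70 in Tlr997, and CpG libraries at 6.63, 6.73 and 6.56 and at 6.40, 6.51 and 6.62. In Tlr779 the level went from 4.61, 5.04 and 4.90 to 5.89, 5.84 and 5.97 with CL097. All stimulated libraries were above all unstimulated ones. The log2 fold change was 1.66 ± 0.09 (adjusted p = 2.51e-09) in Tlr9het, 1.59 ± 0.09 (adjusted p = 4.74e-09) in Tlr997 and 1.05 ± 0.12 (adjusted p = 0.000143) in Tlr779. In order of level, Tlr9het and Tlr997 with CpG stood first and overlapped, Tlr779 with CL097 lay 0.61 below with no overlap, and the unstimulated groups overlapped each other. Exons of Tmem55b on the opposite strand overlap 877 of the 1239 exon bases of Apex1. The library kit kept strand, but whether the counting used it is not given in the sources used here. Tmem55b moved the other way, from a mean of 6.06 to 4.90 log2 CPM with CpG in Tlr9het, from 5.93 to 4.97 in Tlr997 and from 5.77 to 5.20 with CL097.

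Apex2, a second abasic site endonuclease with a strong exonuclease activity, is at chrX:150571508-150588149, minus strand, and was lower than Apex1 per kilobase of exon in each group. Its level in Tlr9het was 2.64, 2.64 and 2.63 without and 3.10, 3.06 and 3.20 with CpG, with no overlap. In Tlr997 it was 2.28, 2.82 and 2.88 without and 3.40, 3.21 and 3.05 with CpG. In Tlr779 it was 2.90, 2.77 and 2.58 without and 2.82, 2.31 and 2.82 with CL097, which overlapped. The CpG response was called in Tlr997 (0.56 ± 0.17, adjusted p = 0.0107) and missed the fold threshold in Tlr9het (0.48 ± 0.17, adjusted p = 0.0231), which it passed without Tlr9het CpG replicate 2 (0.512). The difference between them was 0.08 (95% interval -0.45 to 0.61, adjusted p = 0.916). The Tlr997 call rested on replicate 1, since the value fell to 0.37 without the unstimulated library and 0.47 without the CpG library of that number. It was also lost when only those groups were fitted (adjusted p = 0.0509). In Tlr779 the change with CL097 was -0.10 ± 0.20 (adjusted p = 0.693), with an interval of -0.56 to 0.36.

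**Figure D2:**
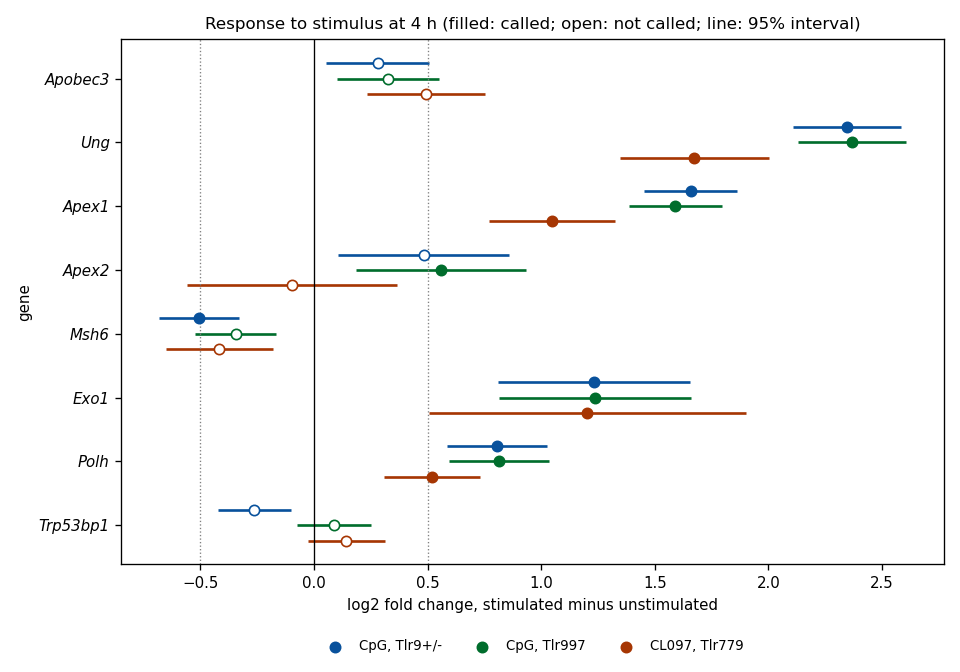
Log2 fold change of each gene with stimulus (x axis) in Tlr9+/- with CpG, Tlr997 with CpG and Tlr779 with CL097, with the 95% interval from limma. Filled points were called and dotted lines mark a log2 fold change of 0.5 in either direction. Ung has the highest value in each comparison and Msh6 the lowest.

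Msh6 is a subunit of the complex that recognizes the U:G mismatch left by deamination. It is at chr17:87975062-87990892, plus strand, and exons of Fbxo11 on the opposite strand overlap 34 of its bases. It was at 6.67, 6.57 and 6.68 log2 CPM in unstimulated Tlr9het and at 6.07, 6.19 and 6.14 with CpG. In Tlr997 it went from 6.75, 6.52 and 6.44 to 6.20, 6.14 and 6.34, and in Tlr779 from 6.48, 6.63 and 6.75 to 6.04, 6.32 and 6.25. Each stimulated library was below each unstimulated library, across all 6 groups. The fall was called in Tlr9het, where it passed the fold threshold narrowly (-0.51 ± 0.08, adjusted p = 8.27e-05). In Tlr997 (-0.35 ± 0.08, adjusted p = 0.00194) and in Tlr779 (-0.42 ± 0.10, adjusted p = 0.00781) the value was below the fold threshold. The Tlr9het value went to between -0.49 and -0.47 without Tlr9het replicate 1, Tlr9het replicate 3 or Tlr9het CpG replicate 1, which ended the call. The difference of the CpG responses was 0.16 (interval -0.09 to 0.41, adjusted p = 0.539).

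Exo1, the exonuclease that removes the strand around a recognized mismatch, is at chr1:175880581-175913489, plus strand. Per kilobase of exon it had the lowest level of the 8 genes. In Tlr9het it was at 1.21, 1.14 and 1.03 without and 2.41, 2.29 and 2.37 with CpG, and in Tlr997 at 1.26, 1.11 and 1.00 without and 2.31, 2.22 and 2.55 with CpG. In Tlr779 it was at 0.51, 0.84 and 1.52 without and 2.01, 2.39 and 2.07 with CL097. The unstimulated Tlr779 libraries spread over more than those of any other group (SD 0.51), and still none reached a stimulated library. The log2 fold change was 1.23 ± 0.20 (adjusted p = 6.9e-05) in Tlr9het, 1.24 ± 0.20 (adjusted p = 7.05e-05) in Tlr997 and 1.20 ± 0.30 (adjusted p = 0.00897) in Tlr779. The CL097 call was lost with no filter on low values (adjusted p = 0.0522). Exo1 is also used by dividing cells, and the proliferation sum is given beside it: from 6.71 to 7.98 without and 6.71 to 7.56 with CpG in Tlr9het, from 6.91 to 8.19 and 6.98 to 7.87 in Tlr997, and from 8.18 to 8.28 without and 7.77 to 9.58 with CL097 in Tlr779. These ranges overlapped between stimulated and unstimulated libraries in all 3 genotypes. Of its markers, Cdk1 was called higher with CpG in Tlr9het (0.96) and with CL097 in Tlr779 (1.17). The Cdk1 call was lost without Tlr9het CpG replicate 1 (adjusted p = 0.0519) and, in Tlr779, without CL097 replicate 2 (0.0544), CL097 replicate 3 (0.05) or unstimulated replicate 2 (0.0545). With no filter on low values, the Cdk1 calls were lost in Tlr9het (adjusted p = 0.0579) and in Tlr779 (0.14).

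Polh, the polymerase that fills in across lesions and introduces mutations at A:T pairs in this process, is at chr17:46171355-46202645, minus strand. Its level was 4.72, 4.84 and 4.64 in Tlr9het and 5.54, 5.49 and 5.59 with CpG. In Tlr997 it was 4.62, 4.69 and 4.29 without and 5.34, 5.40 and 5.29 with CpG, and in Tlr779 it was 4.76, 4.79 and 4.89 without and 5.23, 5.42 and 5.34 with CL097. All stimulated libraries exceeded all unstimulated ones. The log2 fold change was 0.81 ± 0.10 in both first-arm genotypes (adjusted p = 7.72e-06 in Tlr9het and 7.83e-06 in Tlr997). With CL097 it was 0.52 ± 0.09 (adjusted p = 0.00152), and without Tlr779 CL097 replicate 2 or Tlr779 replicate 1 it was 0.47 or 0.49, under the fold threshold. With CpG, the 3 Tlr9het libraries were above the 3 Tlr997 libraries, and the difference of -0.19 ± 0.10 did not pass the test (adjusted p = 0.328).

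Apobec3, a cytidine deaminase known for restricting retroviruses, is at chr15:79892408-79908429, plus strand. It stood at 4.93, 5.02 and 4.83 in Tlr9het and 5.18, 5.10 and 5.35 with CpG. In Tlr997 it was at 5.09, 5.12 and 5.47 and at 5.50, 5.57 and 5.58 with CpG, and in Tlr779 at 5.04, 5.10 and 5.00 and at 5.59, 5.32 and 5.70 with CL097. Stimulated libraries were above unstimulated libraries of the same genotype. The values of 0.28 ± 0.10 (adjusted p = 0.027) in Tlr9het, 0.33 ± 0.10 (adjusted p = 0.013) in Tlr997 and 0.49 ± 0.11 (adjusted p = 0.00547) in Tlr779 were all under the fold threshold. The CL097 value exceeded it without Tlr779 CL097 replicate 2 (0.60) and without Tlr779 replicate 2 (0.52).

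Trp53bp1, which protects broken ends and favors their joining in switching, is at chr2:121194838-121271407, minus strand. It was at 6.92, 6.82 and 6.88 in Tlr9het and 6.62, 6.56 and 6.65 with CpG. In Tlr997 it was at 6.58, 6.61 and 6.80 and at 6.68, 6.68 and 6.90 with CpG, and in Tlr779 at 6.70, 6.65 and 6.70 and at 6.85, 6.91 and 6.71 with CL097. The Tlr9het groups did not overlap, the Tlr997 groups did, and the Tlr779 groups were apart by the narrow step from 6.70, the highest without, to 6.71, the lowest with CL097. The change was -0.26 ± 0.07 (adjusted p = 0.00621) in Tlr9het, 0.09 ± 0.07 (adjusted p = 0.303) in Tlr997 and 0.14 ± 0.07 (adjusted p = 0.125) in Tlr779, none of them called. Exons of Tubgcp4 on the opposite strand overlap 2130 of the 9621 exon bases. The level of Tubgcp4 went from a mean of 4.72 to 4.67 in Tlr9het, 4.60 to 4.89 in Tlr997 and 4.34 to 4.60 in Tlr779.

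Set per kilobase of exon, the order of the genes changed with stimulus. In unstimulated Tlr9het it was Apex1 (4.67 log2 CPM per kb), Msh6 (4.55), Trp53bp1 (3.61), Apobec3 (3.54), Polh (3.04), Ung (2.22), Apex2 (1.72) and Exo1 (-1.84). With CpG, Ung stood second (4.56) after Apex1 (6.33), and Trp53bp1 moved from rank 3 to rank 6 (3.34). Ung also went from rank 6 to rank 2 in Tlr997 and from rank 6 to rank 4 in Tlr779. Apex1 was first, Apex2 was rank 7 and Exo1 rank 8 in all 6 groups. The overlaps of Apex1 with Tmem55b and of Trp53bp1 with Tubgcp4 were not taken out of these levels.

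The comparison of Tlr997 with Tlr9het asked whether exchanging the TIR domain of TLR9 changed these genes. In unstimulated cells 0 of the 8 genes were called between the genotypes (0.0174% of all genes were), with CpG 0 of 8 (2.73%), and the difference of the CpG responses was called for 0 of 8 (1.54%). At an unadjusted limma threshold of 0.05 there were 2 of 8 in unstimulated cells (Apobec3 and Trp53bp1), 1 with CpG (Apobec3) and 1 for the difference of responses (Trp53bp1). Of the 11494 genes tested, 1237, 2187 and 1839 passed that threshold in these comparisons, in the same order. Libraries of the genotypes did not overlap for Apobec3 and Trp53bp1 in unstimulated cells, which is 2 of 8 (13.6% of all genes), and for Apobec3, Polh and Trp53bp1 with CpG, 3 of 8 (30%). For Ung the difference of the CpG responses was 0.03 (95% interval -0.31 to 0.36), for Apex1 -0.07 (-0.36 to 0.22), for Polh 0.01 (-0.30 to 0.32) and for Exo1 0.01 (-0.59 to 0.60). The B cell marker sum was higher in Tlr997 with CpG than in Tlr9het with CpG, with 3 of 5 markers called higher (Cd79b 1.04, Ms4a1 1.26 and Cd22 0.58) and 0 lower. In unstimulated cells 0 of the 5 were called. Its part in the values with CpG was not tested.

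**Figure D3:**
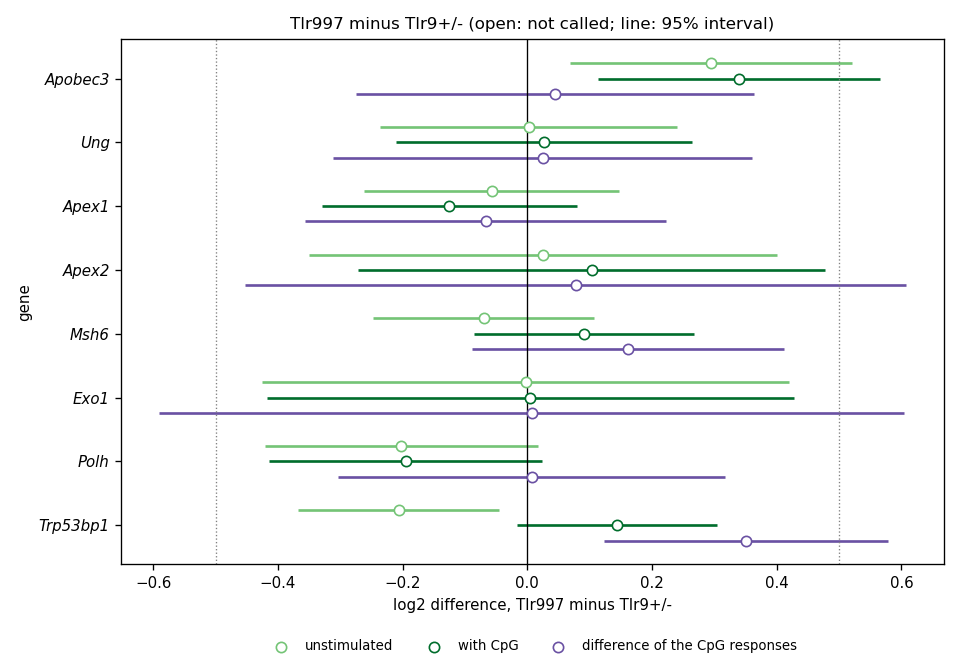
Difference between Tlr997 and Tlr9+/- for each gene (x axis, log2) in unstimulated cells, with CpG, and for the difference of the CpG responses, with the 95% interval from limma. Open points were not called. Apobec3 lies above 0 in both conditions, and Trp53bp1 lies below 0 without and above 0 with CpG.

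Apobec3 was higher in Tlr997 in both conditions by a like amount, 0.29 ± 0.10 without (adjusted p = 0.383) and 0.34 ± 0.10 with CpG (adjusted p = 0.0824), with a difference of responses of 0.05 (interval -0.27 to 0.36). In each condition the 3 Tlr997 libraries were above the 3 Tlr9het libraries. Averaged over both conditions, a comparison chosen after these values were seen, the difference was 0.32 ± 0.07 (interval 0.16 to 0.48, adjusted p = 0.0506), under the fold threshold, and 0.348% of all genes were called. The adjusted p with CpG ranged from 0.0102 to 0.279 over the other settings, and the value from 0.29 to 0.41.

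For Trp53bp1 the CpG response was below 0 in Tlr9het (interval -0.42 to -0.10), and the interval held 0 in Tlr997 (-0.07 to 0.25). Between libraries of the same number the level differed by -0.30, -0.26 and -0.23 with CpG in Tlr9het and by 0.10, 0.08 and 0.09 in Tlr997, where the numbers were not taken to pair libraries and the groups overlapped. The difference of responses was 0.35 ± 0.11 (interval 0.12 to 0.58, adjusted p = 0.117). When replicate numbers formed a block inside each genotype, the adjusted p was 0.0216, and the value remained under the fold threshold. Over the whole table that block raised the count of genes called for the difference of responses from 177 to 328.

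Of the list of deaminases, Apobec1 changed by -0.29 and -0.35 with CpG in Tlr9het and Tlr997 and -0.05 with CL097, under the fold threshold, and Apobec2 did not pass the filter. None of the 8 immunoglobulin heavy chain constant genes asked for matched a symbol in the files, so switched transcripts were not analysed here.

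The wider machinery went in both directions. Over 7 lists, the deaminases included, 57 genes passed the filter, of 59 matched. In Tlr9het 17 were called higher and 17 lower with CpG (29.8% each, against 29.7% and 28.2% of all genes), in Tlr997 18 higher and 14 lower, and in Tlr779 14 higher and 15 lower with CL097. The median log2 fold change was 0.13, 0.28 and 0.18. These shares were near those of all genes tested, which were 29.6% higher and 26% lower in Tlr997 and 22.7% and 23.6% in Tlr779. The same shares of all genes apply to the counts of each list below.

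Among 10 tested genes of base excision repair, 3 rose and 5 fell with CpG in Tlr9het, 2 rose and 5 fell in Tlr997, and 2 rose and 5 fell with CL097 in Tlr779. Over all genes tested, 29.7%, 29.6% and 22.7% were called higher and 28.2%, 26% and 23.6% lower. The 5 of 10 that fell was above the share of all genes in each genotype, and this was not tested. The medians were -0.57, -0.60 and -0.39. Mbd4, a glycosylase for mismatched thymine and uracil, fell by 2.41, 1.85 and 1.52 on the log2 scale in the 3 genotypes. Parp1, the sensor of strand breaks, fell by 1.82, 1.36 and 1.34. Ligase gene Lig3 rose (1.23, 1.36 and 0.84), as did the flap nuclease gene Fen1 (1.17, 0.88 and 0.85). Polb, the gap-filling polymerase, was called in Tlr9het (0.63), and its values of 0.41 and 0.33 in the other two were not called. Ung and Apex1 thus rose in the same libraries in which Mbd4 and Parp1 of the same route fell.

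Of 7 mismatch repair genes, 2 rose and 3 fell in Tlr9het, 3 rose and 2 fell in Tlr997, and 1 rose and 3 fell in Tlr779, with medians of 0.18, 0.48 and 0.03. Msh3, which acts on larger loops, fell by 1.17, 0.80 and 0.62. Mlh3 was called lower in Tlr9het (-0.75) and Tlr779 (-0.65) and stood at -0.45 in Tlr997. Pms1 was called higher in Tlr997 (0.56), and its values of 0.25 in Tlr9het and 0.03 in Tlr779 were not called. Without replicate 3 of either Tlr997 group, unstimulated or CpG, Pms1 was at 0.498 or 0.461 and not called. Mlh3 was called in Tlr997 as well without unstimulated replicate 1 (-0.555) or 2 (-0.608) or CpG replicate 3 (-0.596). Its CL097 call was lost with no filter on low values (adjusted p = 0.0758). The clamp gene Pcna, at a mean of 7.04 log2 CPM in Tlr9het, rose by 0.61 and 0.58 with CpG, and its 0.35 with CL097 was under the fold threshold.

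Of 9 translesion synthesis genes, 3 rose and 2 fell in both first-arm genotypes, and 4 rose and 1 fell in Tlr779, with medians of 0.08, 0.28 and 0.24. Mad2l2, a subunit of polymerase zeta that also acts in break repair, rose by 1.78, 1.50 and 1.31. Usp1, which removes ubiquitin from the clamp, rose by 1.11, 1.15 and 0.81, and Rev1 by 0.73, 0.65 and 0.92. The polymerase gene Polk fell by 1.79, 0.76 and 0.63. Rev3l, the catalytic subunit of polymerase zeta, fell by 0.96 and 0.71 with CpG, and stood at -0.26 with CL097. Ccdc111 (Primpol), also among the lowest, was at -0.44, -0.32 and -0.40 and was not called.

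Of 13 tested genes of the double-strand break response, 4 rose and 3 fell in Tlr9het, 5 rose and 1 fell in Tlr997, and 4 rose and 2 fell in Tlr779. The medians were 0.35, 0.40 and 0.33. Nbn and Mre11a, subunits of the complex that senses breaks, rose in all 3 genotypes (1.09, 0.79 and 1.34 for Nbn and 0.73, 0.75 and 0.54 for Mre11a). H2afx, the histone marked at breaks, rose by 1.06 and 0.76 with CpG and was at 0.33 with CL097. The kinase gene Atm was called lower in Tlr9het (-0.59), and was at -0.20 in Tlr997 and -0.46 in Tlr779. Rnf168 was called lower in Tlr9het as well (-0.54, against -0.45 and -0.35). Shld1, listed as 1110034G24Rik, was called lower with CL097 (-0.76) and not with CpG (-0.56 and 0.40). Some of these calls rested on single libraries. Rnf168 was at -0.466 without Tlr9het replicate 2 and -0.479 without Tlr9het CpG replicate 2, which ended its call. With CL097, Mre11a lost its call without CL097 replicate 2 (0.48) or unstimulated replicate 3 (0.469), and Atm gained one without CL097 replicate 3 (-0.553). Shld1 lost its CL097 call without Tlr779 replicate 3 (adjusted p = 0.0636) and was called in Tlr9het without Tlr997 replicate 3 (adjusted p = 0.0323).

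Of 7 end joining genes, 3 rose and 2 fell in both first-arm genotypes, and 1 rose and 2 fell in Tlr779, with medians of 0.35, 0.14 and 0.21. Both Ku subunit genes rose with CpG, Xrcc5 by 0.95 and 0.97 and Xrcc6 by 0.68 and 0.51. With CL097, Xrcc5 rose by 0.71 and Xrcc6 was at 0.43. Xrcc4 rose by 0.75 and 0.78 with CpG and was at 0.21 with CL097. Prkdc, the kinase that Ku recruits, fell by 2.09, 1.55 and 1.20, and Nhej1 by 1.12, 1.05 and 1.35. The Nhej1 call was lost in Tlr9het without unstimulated replicate 3 (-1.03) or CpG replicate 1 (-0.73), and in Tlr997 without unstimulated replicate 2 (-0.93) or CpG replicate 3 (-0.70). In Tlr997, Xrcc4 went to 0.41 without unstimulated replicate 3, and Xrcc6 to 0.36 without unstimulated replicate 2 and 0.43 without CpG replicate 1, all under the fold threshold. With no filter on low values, Xrcc4 lost its call in Tlr9het (adjusted p = 0.0627) and in Tlr997 (0.0539). Nhej1 then lost its CpG calls too (0.0572 and 0.0728). With CL097, Xrcc6 was called without CL097 replicate 1 (0.53) or unstimulated replicate 3 (0.54). Dclre1c, the nuclease Artemis, was not called (-0.31, -0.09 and 0.28).

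Of 9 genes of deaminase targeting and single-strand DNA binding, 2 rose and 2 fell in each of the 3 genotypes, with medians of 0.14, 0.28 and 0.18. Rpa1, the large subunit of the single-strand binding protein, fell by 1.09, 0.93 and 0.59, and Rpa2 was at 0.27, 0.38 and 0.22. Rpa1 was at -0.496 and not called with CL097 without CL097 replicate 1, and Rpa2 was called in Tlr997 (0.547) without unstimulated replicate 1. The RNA exosome genes Exosc10 (0.80, 0.98 and 0.63) and Exosc3 (0.74 and 0.64) rose, with Exosc3 at 0.18 and not called in Tlr779. The elongation factor gene Supt5 was at -0.06, -0.03 and -0.08.

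**Figure D4:**
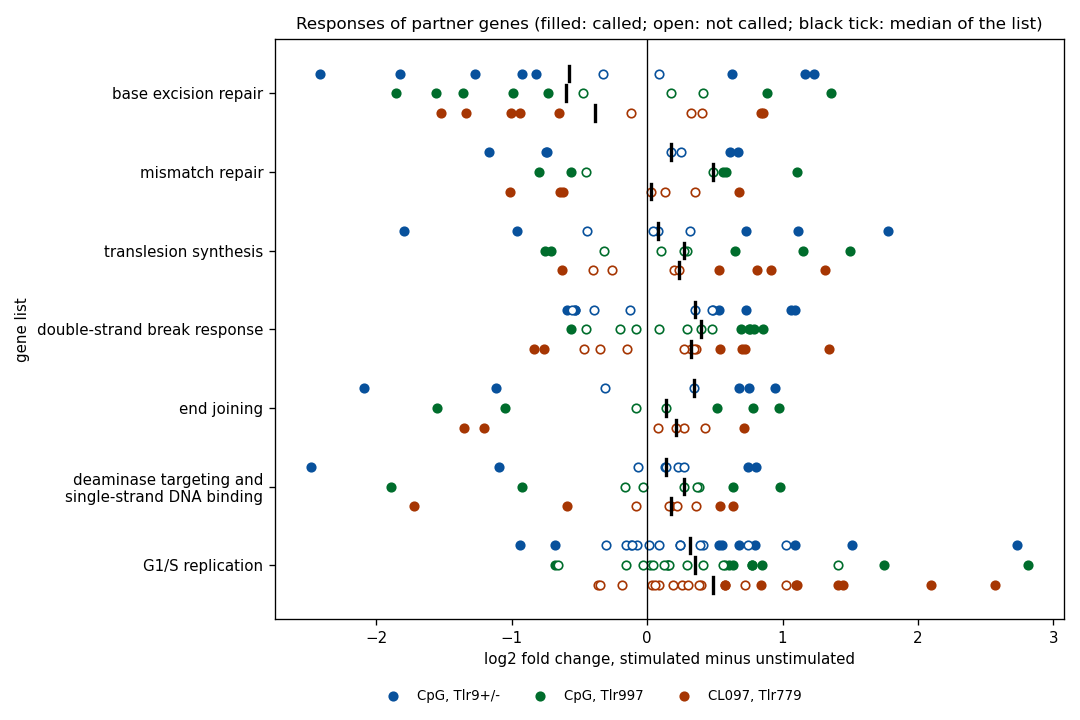
Log2 fold change with stimulus (x axis) of each tested gene of 7 lists (y axis: the machinery lists without the deaminases, and the G1/S replication list), in Tlr9+/- with CpG, Tlr997 with CpG and Tlr779 with CL097. Filled points were called, open points were not, and black ticks mark the medians; base excision repair is the list with a median below 0 in each comparison.

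The genes most like each of the 8 were taken by Pearson's r of the log2 CPM over the 12 libraries of the first arm, which share both genotypes and the agonist. These libraries also share the response to CpG, and r is a description with no test. The value over the 6 Tlr779 libraries is given second. For Ung they were Coq4 (0.998, then 0.995) and Ikbkap (0.997, then 0.980), and for Apex1 they were Rbm34 (0.998, then 0.958) and Thumpd1 (0.997, then 0.980). For Exo1 they were Pole3 (0.993, then 0.856) and Nasp (0.993, then 0.919), and for Polh Spg20 (0.988, then 0.950) and Rbm27 (0.986, then 0.978). Msh6 was most like Cnpy4 (0.977, then 0.885) and Sept1 (0.977, then 0.922). Apex2 was most like Xpo6 (0.958, then 0.313) and Nadk (0.946, then 0.139), Apobec3 like Phtf2 (0.936, then -0.904) and Il15 (0.923, then 0.495), and Trp53bp1 like Ankrd16 (0.896, then -0.442) and Eif4a2 (0.895, then 0.983).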

How the data were processed

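The 18 libraries were stranded mRNA preparations of bead-purified splenic B cells. Per the submitters' processing notes, reads were checked with FastQC 0.11.7, trimmed with Trim Galore 0.6.5, aligned to mm10 with STAR 2.6.1a and counted with featureCounts (Subread 2.0.1). The authors then applied quantile normalization and voom, and deposited log2 CPM values with 3 decimals, 1 file per sample. The depth of each library is unknown, no pseudocount was added, and voom's offset understates the change of low genes. The most common low value was -5.052 (23.4% of values). Of 6209 genes below -4 in all libraries, 6008 had 1 value per replicate number, differing between numbers for 524, so an offset per replicate number may have been removed before deposit, in which case the residual degrees of freedom used here are too many and the SEs, intervals and p-values too small. That step is not described in the sources used here.

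Comparisons were fitted with limma 3.58.1 (R 4.3.3, variance trend, two-sided) on genes over 0 log2 CPM in at least 3 fitted libraries, with Benjamini-Hochberg adjustment over all of them. The 12 libraries of the first arm shared 1 model and the 6 Tlr779 libraries another. Over tested genes, deviations from group means correlated between same-numbered libraries at 0.513, 0.287 and 0.509 in Tlr9het, 0.373, 0.083 and 0.025 in Tlr997 and 0.252, 0.485 and 0.334 in Tlr779. By a bound of 0.1 for every pair, the numbers were taken to pair the Tlr9het and Tlr779 libraries and not those of Tlr997. The main fits, which gave the SEs and adjusted p-values of the responses, did not use this pairing, and the replicate block was an alternative.

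The 8 genes and the lists of partner genes and markers were chosen with earlier results of these data known. Genes named from a list were the 3 highest and 3 lowest in the CpG response of Tlr9het, with Pcna; Polk is also named for the difference of responses, and Tmem55b and Tubgcp4 for their overlap, and Bcl6, Fas, S1pr2 and Cdk1 were named after their values were seen. Some genes of these lists are counted in them but not reported here by name, and 2 were left out of the marker sums. Coordinates and exon lengths came from GENCODE M21 (GRCm38, RefSeq-linked transcripts), and promoter windows from RefSeq. Older symbols were matched through RefSeq synonyms, and Shld3 and Paxx had no match. Alternatives changed the filter, a pseudocount of 1 CPM, the scaling, the variance trend, library weights, the fold threshold, the libraries in the model and the block, and left out each library in turn.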

Additional observations from a re-analysis of the deposited data

Results flagged for a closer look

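Trp53bp1 is given here because the differences between CpG and unstimulated libraries of the same number were all below 0 in Tlr9het and all above 0 in Tlr997. The numbers were not taken to pair the Tlr997 libraries, whose groups overlapped, and the Tlr997 response itself did not pass (adjusted p = 0.303). The response in Tlr997 minus that in Tlr9het was 0.35 on the log2 scale. The difference was tested with limma and did not pass (adjusted p = 0.117). The adjusted p ranged from 0.0209 to 0.267 over the other settings, and the value was under the fold threshold in all of them.

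Of the 57 tested genes of the machinery lists, 2 were called for the difference of responses (3.51%, against 1.54% of all genes tested), both higher in Tlr997 minus Tlr9het, and Polk is described here. Polk was at 4.15, 4.10 and 4.06 log2 CPM in Tlr9het and 2.20, 2.44 and 2.28 with CpG, and at 3.42, 3.73 and 4.05 in Tlr997 and 2.87, 3.25 and 2.82 with CpG. The fall was smaller in Tlr997 by 1.04 ± 0.24 (adjusted p = 0.0475), and the CpG libraries did not overlap between genotypes. The adjusted p ranged from 0.00661 to 0.14 over the other settings, with values of 0.88 to 1.20, and the call was lost without any 1 of the 12 libraries except Tlr997 replicate 3.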

How the results depend on the processing

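For single genes, partner genes included, 3630 of 3863 recomputed values kept their direction and their side of the thresholds, 145 called values lost and 26 uncalled values gained a call, and 62 changed sign, none of them called. A fold threshold of 1 left 4058 genes called with CpG in Tlr9het, 3767 in Tlr997, 74 between genotypes with CpG, 46 for the difference of responses and 2581 with CL097. It left 3 of the 8 genes called higher in Tlr997 and 0 lower in Tlr9het. Polh, at 0.81 in both first-arm genotypes and 0.52 with CL097, lost its call at that threshold in Tlr9het and Tlr779 as well. The call of Msh6 in Tlr9het was also lost with the pseudocount and with library weights (0 called lower). With no filter, 0 genes were called between unstimulated genotypes, 188 with CpG and 78 for the difference of responses. Fitting only the groups compared gave 0 for the unstimulated genotypes. The difference of responses called 98 genes with no variance trend and 377 with library weights, which called 485 between genotypes with CpG. With the replicate block within genotype it called 328. The blocks changed no call of the 8 genes. In Tlr997, where the numbers were not taken to pair libraries, the block within genotype called Ccne1 (adjusted p = 0.0107) and Cdk1 (0.00149). Leaving out 1 library gave 2 to 4 genes called between unstimulated genotypes, 187 to 410 with CpG, 87 to 295 for the difference of responses (295 without Tlr997 replicate 3), and 0 to 1 of the 8 called lower in Tlr9het. The causes were not tested.

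Values near 0 that changed sign when 1 library was left out ranged as follows. For the difference of responses they were -0.022 to 0.165 for Apobec3, -0.113 to 0.188 for Apex2, -0.062 to 0.102 for Ung, -0.116 to 0.086 for Polh and -0.091 to 0.079 for Exo1. For unstimulated genotypes they were -0.075 to 0.089 for Ung, -0.086 to 0.215 for Apex2, -0.071 to 0.059 for Exo1 and -0.122 to 0.056 for Apex1. With CpG they were -0.047 to 0.100 for Ung and -0.093 to 0.076 for Exo1, and for CL097 -0.184 to 0.073 for Apex2. Among partner genes, the CpG response in Tlr997 went from -0.115 to 0.515 for S1pr2, -0.176 to 0.716 for Shld1, -0.231 to 0.056 for Dclre1c and -0.082 to 0.003 for Supt5, and the CL097 response from -0.138 to 0.071 for Apobec1, -0.072 to 0.298 for Rrm1 and -0.080 to 0.103 for Pms1. Median centring gave -0.002 for Ung (unstimulated) and -0.001 for Exo1 (with CpG). Repeated quantile normalization gave 0.036 (unstimulated) and -0.032 (difference of responses) for Exo1. Library weights gave 0.034 for Apex1 and 0.002 for Exo1 (unstimulated), -0.009 for Exo1 (with CpG), and -0.044 for Ung, -0.059 for Polh and -0.011 for Exo1 (difference of responses). They also gave -0.005 for Shld1 and -0.101 for S1pr2 with CpG in Tlr997. The average over both conditions, chosen after the data were seen, gave -0.031 for Trp53bp1.

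With 3 libraries per group and no counts, small differences of low genes such as Exo1 were not resolved, as its intervals show.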

Other observations

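Of 22 genes of G1/S replication, CpG raised 7 and lowered 2 in Tlr9het and raised 8 and lowered 1 in Tlr997, and CL097 raised 9 and lowered 0 in Tlr779, with medians of 0.32, 0.35 and 0.48. Over all genes tested, 29.7% were called higher and 28.2% lower in Tlr9het, 29.6% and 26% in Tlr997, and 22.7% and 23.6% in Tlr779. The 7 of 22 raised in Tlr9het was near the share of all genes, and the 9 of 22 raised with CL097 was above it. The lowered counts of 2, 1 and 0 of 22 were below the share in each genotype. These departures were not tested. Tyms, the thymidylate synthase gene, rose by 2.73, 2.81 and 2.57 on the log2 scale. Among the others, Gins2 (1.09, 0.77 and 0.57) and Ccne2 (1.52, 0.78 and 1.41) were called higher in each genotype. The CL097 call of Gins2 was lost without any 1 library except CL097 replicate 1 (values 0.49 to 0.64), and the Tlr997 call of Ccne2 without unstimulated replicate 2 or 3, CpG replicate 1 or 2, Tlr9het replicate 2 or Tlr9het CpG replicate 2 (adjusted p 0.0598 to 0.15). Cdt1, a licensing factor, fell by 0.68 in both first-arm genotypes and was at -0.18 with CL097. Rrm1 was at -0.30, -0.15 and 0.06 and was not called. The cyclin gene Ccne1 was called lower with CpG in Tlr9het (-0.94), was at -0.66 in Tlr997, and was called higher with CL097 in Tlr779 (1.11). The Tlr9het call of Ccne1 was lost without CpG replicate 2 or 3 (-0.75 in both), and Tlr997 gained one without CpG replicate 1 (-0.80) or Tlr9het CpG replicate 1 (adjusted p = 0.0167). With no filter on low values, the Ccne1 calls were lost in Tlr9het (adjusted p = 0.053) and with CL097 (0.0957). The Ccne2 calls were then lost in Tlr997 (0.151) and with CL097 (0.11), and the Gins2 call with CL097 (0.0574). In Tlr997 the Ccne2 call was also lost with median centring (adjusted p = 0.05), repeated quantile normalization (0.0528) and no variance trend (0.0655). All 18 libraries in 1 model ended it as well (0.075). The contrast of Ccne1 between the arms was not tested.

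Of 6 germinal center B cell markers, Bcl6 and Fas rose with CpG in Tlr9het (0.92 and 1.89) and with CL097 in Tlr779 (0.93 and 1.72). Of all genes tested, 29.7% were called higher with CpG in Tlr9het, 29.6% in Tlr997 and 22.7% with CL097, where 23.6% were called lower. The 2 of 6 called higher in Tlr9het was near that share. In Tlr997 Fas rose (2.17) and Bcl6 was at 0.496, under the fold threshold, which it passed without unstimulated replicate 1 (0.57), CpG replicate 2 (0.56) or CpG replicate 3 (0.554). All these mice carry the lpr mutation of Fas, so the Fas values are those of the mutant gene. S1pr2 was called lower with CL097 (-1.08), and the other markers of that list, Mybl1, Gcsam and Rgs13, were not called in any genotype.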
